A study of Drosophila melanogaster with 7 samples.

Results

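The regions described here are 556 of the 1984 replication terminations called in 5 untreated Nanopore libraries of Drosophila S2 cells, an embryo-derived cell line, or 28%. Each was chosen by its width:  its deposited end coordinate was greater than its start, so that an unlabelled stretch separated the 2 tracks of converging forks on 1 sequenced molecule. The other 1428 terminations had zero width, with both tracks meeting at one coordinate. Cells had been given 10 µM EdU and then 10 µM BrdU, both thymidine analogues, followed by 50 µM thymidine for 20 min, and pairs of flasks labelled together were combined. The groups were short pulses of 3 min EdU and 6 min BrdU (replicates 3 and 4), long pulses of 7 min EdU and 15 min BrdU (replicates 1 and 2), and a control with the long pulses that was sequenced on another instrument type (1 library). The labels give the short pulses, the long pulses and the control a batch each. Batch and pulse length therefore cannot be told apart between the short and the long pulses. The labels do not say whether replicates were separate cultures, and the p-values below measure only the spread between these libraries, which may be technical.

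Replication termination is the meeting of forks that travel towards each other from neighbouring origins. The forks copy the last stretch between them, the helicases are unloaded and the nascent strands are joined. In animal cells most terminations have no fixed place, because the meeting point follows from where and when the origins on either side fired. On a molecule labelled in pulses, each fork leaves EdU first and then BrdU, and the BrdU end points towards the meeting point, and the gap is the part between the ends of the 2 tracks.

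Depth differed between libraries. The files held 2999 and 2716 forks on the main chromosome arms in the short-pulse replicates 3 and 4, 10277 and 12745 in the long-pulse replicates 1 and 2, and 1836 in the control. Gapped terminations numbered 17 in short-pulse replicate 3 and 63 in replicate 4. They numbered 196 and 227 in long-pulse replicates 1 and 2, and 53 in the control. All 556 lay on the main arms, on 553 reads, of which 3 carried 2 gaps, and no read was shared between libraries.

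The share of terminations with a gap was 10.4% in short-pulse replicate 3 (95% Wilson interval 6.61 to 16.1%) and 37.5% in replicate 4 (30.5 to 45%). It was 30.9% (27.4 to 34.6%) and 25.7% (22.9 to 28.7%) in long-pulse replicates 1 and 2, and 39.6% (31.7 to 48.0%) in the control. The mean was 28.8 ± 11.7% (SD, n = 5 libraries), and the 2 short-pulse libraries lay at opposite sides of the long-pulse ones. These intervals cover counting error only. Per 100 forks, gapped terminations numbered 0.567 and 2.32 in short-pulse replicates 3 and 4, 1.91 and 1.78 in long-pulse replicates 1 and 2, and 2.89 in the control, so that replicate 3 held the fewest by this measure too.

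Gaps varied widely in width. The narrowest measured 3.03 kb, the quartiles of all 556 were 8.12, 13.3 and 22.2 kb, and the widest spanned 153 kb. No gap was narrower than 3 kb, 33 measured 3 to 4 kb, and every termination outside the rule had a width of exactly 0. There were 196 gaps under 10 kb, 190 of 10 to 20 kb, 147 of 20 to 50 kb and 23 over 50 kb. The edges of all 556 gaps were the ends of the 2 facing fork tracks. No called EdU segment reached into a gap (0), and 1 BrdU segment did, by 2884 bp.

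Median gap width was 7.51 kb in short-pulse replicate 3 and 11.1 kb in replicate 4, 14.6 and 13.3 kb in long-pulse replicates 1 and 2, and 15.2 kb in the control. The mean of the medians was 12.3 ± 3.11 kb (SD, n = 5 libraries), and both short-pulse medians lay below the 3 others. The middle 50% of gaps overlapped between all libraries, running from 4.93 to 11.9 kb in short-pulse replicate 3 and from 9.71 to 26.9 kb in the control. Gap width and gapped share were the values that chose these terminations and are given without a test.

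**Figure D1:**
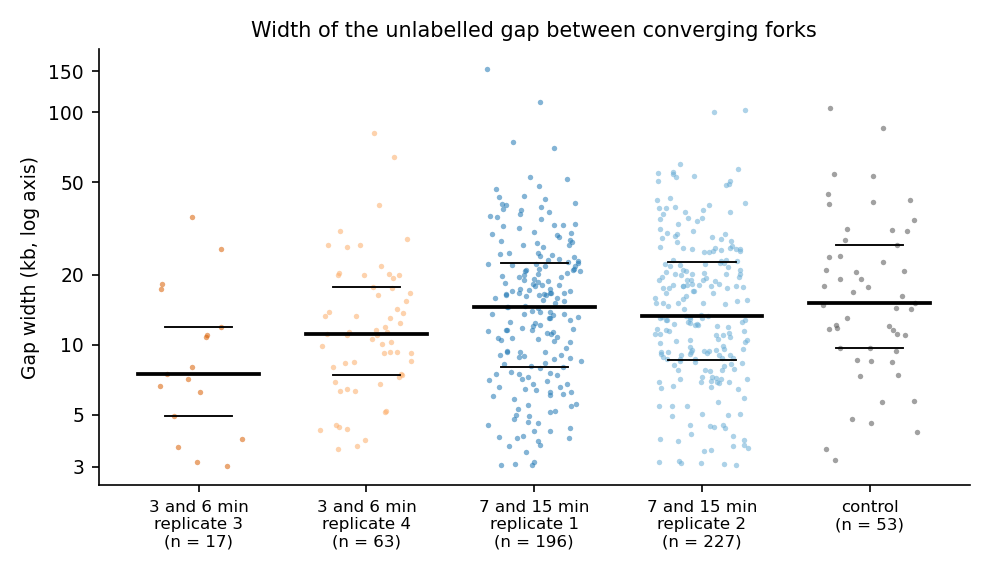
Width of each gap in kb (log axis) by library, with 1 point per termination (17, 63, 196, 227 and 53 from left to right) a thick bar at the median and thin bars at the quartiles. The medians run from 7.51 kb in short-pulse replicate 3 to 15.2 kb in the control, and no point lies under 3 kb.

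The widest gap of short-pulse replicate 3 was 35.4 kb, at 2R 9712872 to 9748266 (dm6), with its midpoint in sqa, which encodes a protein kinase. In replicate 4 it was 81.1 kb, at 2L 15552280 to 15633391, with an intergenic midpoint 8.86 kb from kek3, a gene for a leucine-rich repeat membrane protein. The widest of all was in long-pulse replicate 1, 153 kb at 3L 9969153 to 10122188 on a read of 233 kb. It touched 10 genes, and its midpoint lay in dpr6, which encodes an immunoglobulin-domain surface protein. Long-pulse replicate 2 had one of 102 kb at 2R 12415579 to 12517238, which touched 23 genes, the most of any gap, with its midpoint in dgt5, a gene for an augmin subunit of the spindle. The control's widest, 104 kb at 3R 8371664 to 8475600, had its midpoint in CG45263.

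Both forks and the gap must fit on one molecule, and reads with a gap were long. Their median length was 53.6 and 61.8 kb in short-pulse replicates 3 and 4, 106 and 91.6 kb in long-pulse replicates 1 and 2, and 111 kb in the control. Reads with a zero-width termination had medians of 45.5, 42.3, 79.7, 76.8 and 84.1 kb in the same order. Reads with a gap were longer in 5 of 5 libraries, by 19.2 ± 8.08 kb (SD, n = 5). This is a description without a test, since the width rule adds a gap that the read must hold. For the results tested below, the smallest p that 5 libraries allow in an exact two-sided sign-flip permutation is 0.0625. Adjusted p-values are by Benjamini-Hochberg over 13 tests. No test over 5 libraries could therefore pass 0.05. On reads of at least 100 kb alone the difference was −6.35 kb.

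Pooled over libraries, 12.4% of terminations on reads under 50 kb had a gap (56 of 452), 25.6% on reads of 50 to 75 kb (120 of 469), 29.1% on reads of 75 to 100 kb (124 of 426), 37.9% on reads of 100 to 150 kb (179 of 472) and 47.0% on longer reads (77 of 164). Over the libraries with enough terminations in a class, the share ran from 8.51 to 20.3% under 50 kb (5 libraries). At 50 to 75 kb it ran from 11.4 to 57.1% (5 libraries), and at 75 to 100 kb from 27.4 to 43.5% (4 libraries). It ran from 32.4 to 54.8% at 100 to 150 kb and from 46.3 to 50% on longer reads (3 libraries each). The pooled median gap was 8.70, 11.9, 13.1, 16.4 and 18.4 kb over the same read classes. Within libraries, Spearman's rho of gap width with read length was 0.311 and 0.357 in short-pulse replicates 3 and 4 (n = 17 and 63 gaps), 0.30 and 0.265 in long-pulse replicates 1 and 2 (n = 196 and 227), and 0.174 in the control (n = 53). Both measures come from the same read, and a read must exceed its gap. On reads of at least 100 kb the gapped share was 39.9% and the median gap 16.7 kb, as means over the 5 libraries.

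The EdU segments of the forks that faced a gap had median lengths of 3.6 and 3.04 kb in short-pulse replicates 3 and 4, 4.91 and 5.30 kb in long-pulse replicates 1 and 2, and 4.62 kb in the control. At zero-width terminations they were 3.13, 3.53, 5.46, 5.93 and 5.51 kb in the same order, so that the segments at gaps were shorter in 4 of 5 libraries and longer in short-pulse replicate 3. The difference was −0.419 ± 0.517 kb (SD, n = 5; exact sign-flip permutation p = 0.125, adjusted p = 0.271), and −0.640 kb without short-pulse replicate 3. It was −0.0391 kb, above 0 in 2 of 4 libraries, with version 4.0.3 of the caller alone, and −0.181 kb for gaps of at least 10 kb. That version left 17 and 18 gaps in long-pulse replicates 1 and 2, and none in the control. With both track starts at least 5 kb inside the read the difference was −0.464 kb. Forks alone on their read had EdU medians of 3.48, 3.46, 5.44, 6.25 and 5.43 kb. Against these lone forks the difference was −0.516 ± 0.411 kb, above 0 in 1 of 5 libraries (exact sign-flip permutation p = 0.125, adjusted p = 0.271). It was −0.292 kb with version 4.0.3 alone, −0.279 kb for gaps of at least 10 kb and −0.489 kb with track starts at least 5 kb inside the read. This comparison was added after the data were seen.

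The BrdU segments beside a gap were longer than those at zero-width terminations in every library. Their medians were 5.28 and 3.73 kb in short-pulse replicates 3 and 4, 7.04 and 6.99 kb in long-pulse replicates 1 and 2, and 6.20 kb in the control. At zero-width terminations the medians were 1.99, 2.33, 3.10, 3.15 and 3.87 kb in the same order. The means of these medians were 5.85 ± 1.38 kb at gaps and 2.89 ± 0.743 kb at zero width (SD, n = 5), a difference of 2.96 ± 1.1 kb. This is a description without a test, since tracks that meet end at their meeting and tracks beside a gap do not, a split that the width rule made. The length of a segment at zero width also depends on how the meeting point is placed. At all 1427 zero-width terminations on the main arms the 2 BrdU segments were equal to within 1 bp, so that the joint BrdU stretch had been divided at its midpoint, whereas at the gaps none of the 556 pairs was.

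The joint BrdU length of both forks does not depend on that division, but it too ends where the tracks meet and supports nothing beyond the rule. Its median was 10.6 and 7.10 kb at the gaps of short-pulse replicates 3 and 4, 14.6 and 14.2 kb in long-pulse replicates 1 and 2, and 11.9 kb in the control. At zero-width terminations it was 3.98, 4.66, 6.19, 6.30 and 7.75 kb in the same order, less than at gaps in each library.

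Against forks alone on their read, BrdU segments at gaps were longer in some libraries and shorter in others. The lone forks had medians of 3.39, 3.91, 6.10, 6.88 and 6.21 kb, and the difference was 0.553 ± 0.863 kb, above 0 in 3 of 5 libraries (exact sign-flip permutation p = 0.375, adjusted p = 0.488). Without short-pulse replicate 3, where it was largest, the difference was 0.219 kb. For gaps of at least 10 kb it was 1.34 kb, above 0 in 5 of 5 libraries, a description without a test. That limit selects by width, which rose with the joint BrdU length of the pair (Spearman's rho 0.207 to 0.574 within libraries). With track starts at least 5 kb inside the read the difference was 0.896 kb, above 0 in 4 of 5. It was 0.307 kb with means in place of medians and 0.340 kb with version 4.0.3 alone. Reads with a single fork were shorter, with median lengths of 27.2 and 33 kb in the short-pulse libraries, 50.8 and 52.9 kb in the long-pulse libraries, and 52.8 kb in the control. On reads of at least 100 kb the BrdU difference from lone forks was 0.270 ± 1.83 kb, above 0 in 3 of 5 libraries, and the EdU difference −0.728 ± 1.26 kb, above 0 in 2 of 5.

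**Figure D2:**
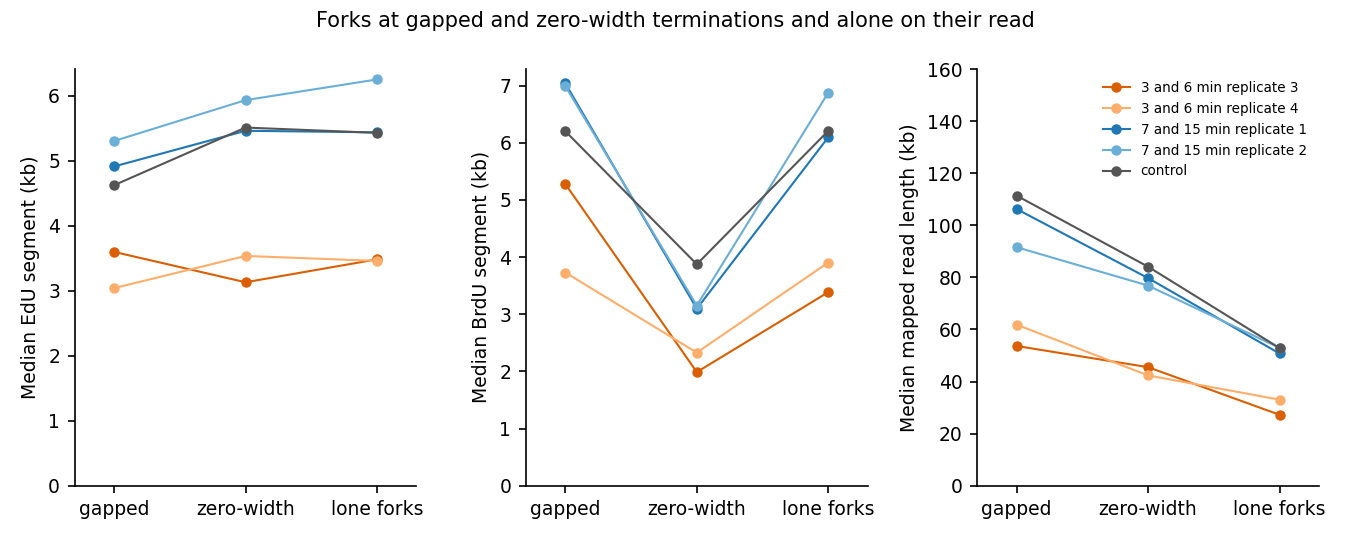
Median EdU segment, BrdU segment (both in kb) and read length (kb) of forks at gaps, at zero-width terminations and alone on their read, with 1 line per library. BrdU medians lie higher at gaps than at zero width in all 5 libraries, and read length is greatest at gaps.

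Divided by labelling time, BrdU segments at gaps measured 0.880 and 0.622 kb per min in short-pulse replicates 3 and 4, against 0.469 and 0.466 kb per min in long-pulse replicates 1 and 2. The means were 0.751 ± 0.182 kb per min for short pulses and 0.468 ± 0.00224 kb per min for long pulses (SD, n = 2 each). The difference of 0.283 kb per min had an exact two-sided permutation p of 0.333, the smallest that 2 against 2 libraries allow (adjusted p = 0.481). It was 0.154 kb per min without replicate 3 and 0.412 kb per min without replicate 4. The control, labelled with the long pulses, had 0.413 kb per min. The caller's version moved with the pulse length as well, since 100% of gapped terminations in both short-pulse libraries came from version 4.0.3, against 8.67 and 7.93% in the long-pulse libraries and 0% in the control. Version 4.0.3 alone left 17 and 18 gaps in long-pulse replicates 1 and 2. With it the values were 0.880 and 0.622 kb per min for short pulses, against 0.284 and 0.345 kb per min for long pulses. The difference was 0.436 kb per min (exact permutation p = 0.333).

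The 2 forks that faced one gap had BrdU segments of related length. Pearson's r of their log2 lengths was 0.565 and 0.521 in short-pulse replicates 3 and 4 (n = 17 and 63 pairs), 0.716 and 0.744 in long-pulse replicates 1 and 2 (n = 196 and 227), and 0.754 in the control (n = 53). For the EdU segments of the same pairs r was 0.433 and 0.155 in short-pulse replicates 3 and 4, 0.374 and 0.246 in long-pulse replicates 1 and 2, and −0.0626 in the control. Both forks of a pair share their read and its base calling, and the correlations describe these pairs across molecules. In each library the BrdU correlation exceeded the EdU correlation. Of the 1112 forks at gaps, 169 with a stall score and 38 without had EdU ends within 1 kb of the read end. An EdU segment there may be incomplete, and its effect on the correlation was not tested.

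The median absolute log2 ratio of the 2 BrdU segments was 0.82 and 0.54 in short-pulse replicates 3 and 4, 0.42 and 0.37 in long-pulse replicates 1 and 2, and 0.41 in the control, with a mean of 0.51 ± 0.18 (SD, n = 5). No zero-width value stands beside it, since that ratio was set by the division at the midpoint. The same measure for EdU was 0.47 ± 0.09 at gaps and 0.51 ± 0.05 at zero width, a difference of −0.04 ± 0.11 on the log2 scale (exact sign-flip permutation p = 0.4375, adjusted p = 0.517), which is smaller than the spread between libraries. It was −0.01 without short-pulse replicate 3.

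**Figure D3:**
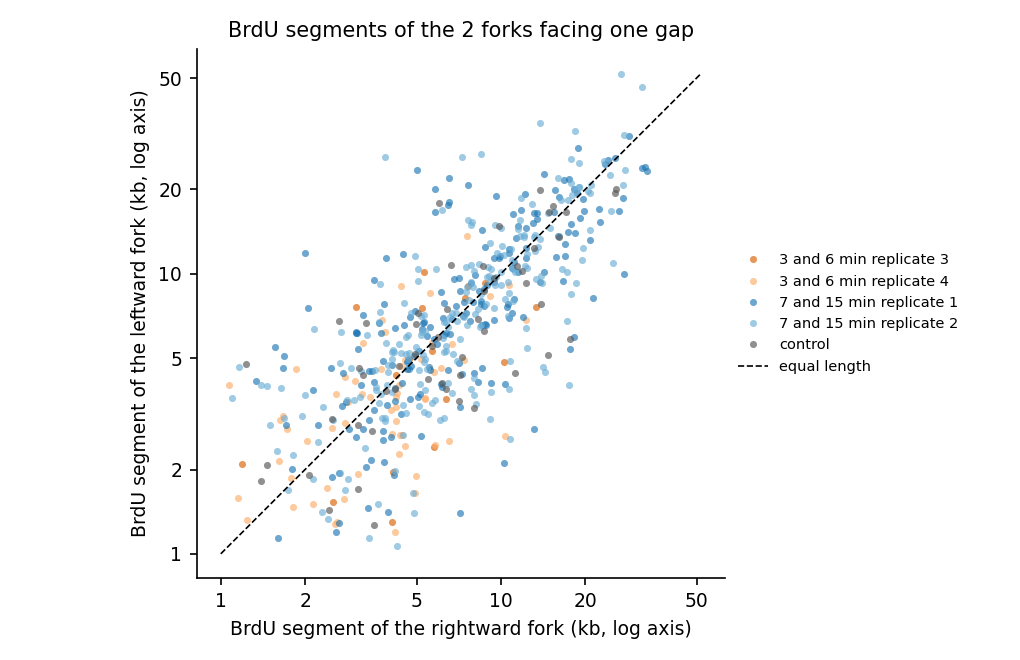
BrdU segment of the leftward fork against that of the rightward fork (kb, log axes), with 1 point per gapped termination, coloured by library, and a dashed line at equal length. Points lie along the line over the whole range, with Pearson's r of log2 lengths from 0.521 to 0.754 within libraries.

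Each read is one strand, so 1 fork of a pair was read on its leading and the other on its lagging nascent strand. Of the 556 gaps, 266 lay on forward and 290 on reverse reads. The BrdU segment of the leading over the lagging fork averaged a log2 ratio of −0.12 and 0.01 in short-pulse replicates 3 and 4, 0.06 and 0.08 in long-pulse replicates 1 and 2, and −0.04 in the control. The mean of 0.00 ± 0.08 (SD, n = 5) was above 0 in 3 of 5 libraries (exact sign-flip permutation p = 1), and its sign turned when 1 library was left out. The rightward over the leftward fork gave 0.09 ± 0.09, above 0 in 4 of 5 libraries (exact sign-flip permutation p = 0.1875, adjusted p = 0.348). It was −0.03 where both track starts lay at least 5 kb inside the read.

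From the start of one track to the start of the other, the converging forks spanned a median of 32.6 and 27.5 kb in short-pulse replicates 3 and 4, 43.4 and 44.0 kb in long-pulse replicates 1 and 2, and 47.9 kb in the control. A closing time was computed for each gap as its width divided by the summed BrdU length per min of its own 2 forks, which takes both to have kept their speed. Its median was 4.59 min in short-pulse replicate 3 and 9.74 min in replicate 4, 14.7 and 14.8 min in long-pulse replicates 1 and 2, and 18.6 min in the control. The mean of 12.5 ± 5.43 min (SD, n = 5) and all 5 medians lay under the 20 min of the thymidine chase. With speeds taken from the EdU segments the mean was 8.03 ± 3.12 min. Gap width was bounded by the length of the read, and reads with a gap were shorter in the short-pulse libraries than in the others. On reads of at least 100 kb the mean closing time, from BrdU speeds, was 12.6 ± 4.75 min.

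The closing time is computed and was not observed, and each gap was read as part of 1 sequenced molecule. Whether the 2 forks kept their BrdU speed across the gap was not tested. For single gaps the computed time was longer than the chase. It exceeded 20 min at 186 of the 556 gaps (33.5%). The share was 0% in short-pulse replicate 3 (0 of 17, Wilson upper bound 18.4%), 14.3% in replicate 4 (95% Wilson interval 7.70 to 25.0%), 30.1% (24.1 to 36.9%) and 41.0% (34.8 to 47.5%) in long-pulse replicates 1 and 2, and 47.2% (34.4 to 60.3%) in the control. The longest, 135 min, came from a gap of 30.9 kb at 2L 22719150 to 22750073 in CG40006 whose BrdU segments measured 1.74 and 1.69 kb. The 153 kb gap at dpr6 had 93.9 min. With EdU speeds, the share over 20 min was 0 and 3.17% in short-pulse replicates 3 and 4, 15.8 and 18.1% in long-pulse replicates 1 and 2, and 18.9% in the control.

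**Figure D4:**
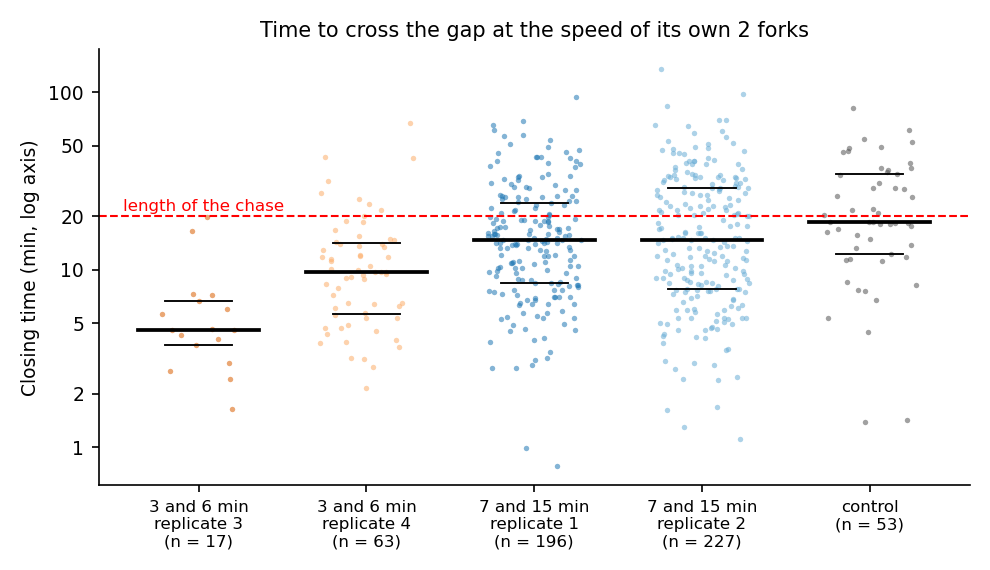
Closing time of each gap in min (log axis) by library, with 1 point per gap, a thick bar at the median, thin bars at the quartiles and a dashed line at the 20 min chase. All 5 medians lie under the line, and 33.5% of the gaps lie above it.

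The deposited stall score, which runs from 0 to 1 per fork, was present for 1074 of the 1112 forks at gaps (96.6%). The other 38 carried a code of −3, and their EdU ends all lay within 1 kb of the read end, as did those of 169 scored forks. All 2854 forks at the zero-width terminations carried a code of −1 in place of a score, and so only lone forks could be compared. The scored share at gaps was 82.4 and 86.5% in short-pulse replicates 3 and 4, 99.2 and 97.8% in long-pulse replicates 1 and 2, and 98.1% in the control. Among lone forks it was 12.7, 41.7, 46.0, 49.6 and 57.5% in the same order.

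A score of at least 0.5 was found in 17.9 and 62.4% of the scored forks at gaps in short-pulse replicates 3 and 4, in 19.5 and 18.5% in long-pulse replicates 1 and 2, and in 22.1% in the control. Among scored lone forks the shares were 19.7, 43.9, 18.5, 20.7 and 25.8% in the same order. The difference of 2.32 ± 9.17 percentage points (SD, n = 5) was above 0 in 2 of 5 libraries (exact sign-flip permutation p = 0.9375, adjusted p = 1). It was −1.71 points without short-pulse replicate 4, where both classes of fork scored highest. It was 11.9 points, above 0 in 3 of 4 libraries, with version 4.0.3 alone. With a threshold of 0.3 it was 2.83 points, above 0 in 5 of 5 libraries (exact sign-flip permutation p = 0.0625), and with 0.8 it was 0.243 points. This comparison was added after the data were seen.

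Pairs were then counted where both forks had a score. In long-pulse replicate 1, 133 of 193 pairs had no fork at or above 0.5, 45 had 1 and 15 had 2, and in long-pulse replicate 2 the counts were 147, 60 and 10 of 217. The control had 33, 14 and 4 of 51, and short-pulse replicate 3 had 8, 3 and 0 of 11. Short-pulse replicate 4 stood apart with 11, 12 and 23 of 46. All its gaps came from caller version 4.0.3, as did those of short-pulse replicate 3. In long-pulse replicates 1 and 2 that share was 8.67 and 7.93%, and in the control 0%. Spearman's rho between the scores of the 2 forks was 0.400 and 0.515 in short-pulse replicates 3 and 4, 0.342 and 0.261 in long-pulse replicates 1 and 2, and 0.368 in the control, again across pairs that share a read.

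Pairs with 2 high scores had a median gap of 10.6 kb in short-pulse replicate 4, 11.9 and 11.5 kb in long-pulse replicates 1 and 2, and 10.2 kb in the control. Pairs with 1 high score had 13.8, 15.8, 12.1 and 16.3 kb in the same 4 libraries, and pairs with none had 13.7, 14.5, 15.0 and 17.8 kb. The median was lowest beside 2 high scores in each of the 4, which had 4 to 23 such pairs. Pairs with 1 high score had wider gaps than pairs with none in short-pulse replicate 4 and long-pulse replicate 1, and narrower ones in the others. Width is given as a description. In pairs with 1 high score, the BrdU segment of that fork over its partner's had a mean log2 ratio of −0.29 and −0.18 in short-pulse replicates 3 and 4, −0.18 and −0.15 in long-pulse replicates 1 and 2, and −0.22 in the control. The mean was −0.20 ± 0.06 (SD, n = 5), below 0 in 5 of 5 libraries, with 3 such pairs in short-pulse replicate 3 (exact sign-flip permutation p = 0.0625, adjusted p = 0.271). With a threshold of 0.3 in place of 0.5 the mean was 0.05, and with 0.8 it was −0.40 over 4 libraries. It was −0.12 with medians in place of means and −0.06 ± 0.52 with version 4.0.3 alone. There 1 of 4 libraries lay above 0, and each had 3 to 12 such pairs. This comparison too was added after the data were seen.

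**Figure D5:**
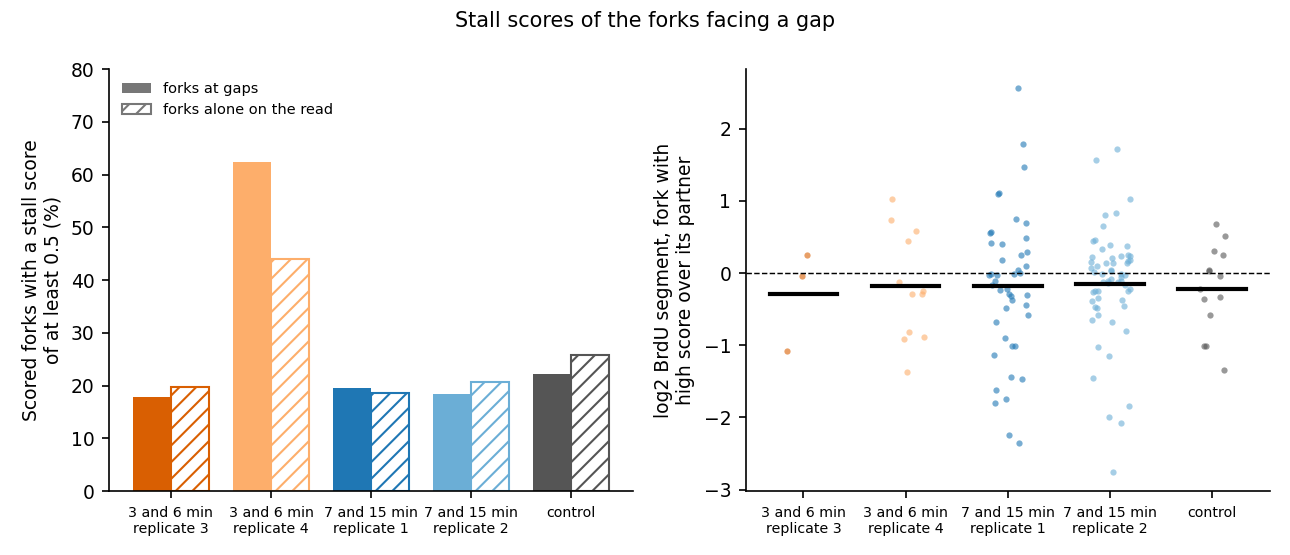
Left, percent of scored forks at or above a stall score of 0.5, at gaps (filled) and alone on the read (hatched), by library. Right, log2 BrdU segment of the fork with the high score over its partner, with 1 point per pair and a bar at the mean. Short-pulse replicate 4 has 62.4% at gaps, and all 5 means on the right lie below 0.

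Of the reads with a gap, some also carried the origins from which the forks came. A called origin lay on the read of 128 gaps (23.0%), against 285 zero-width terminations (20.0%). For the 138 forks that started at such an origin, the distance from it to the middle of the gap had a median of 30.2 kb and ran from 8.05 to 84.9 kb. By library the median was 24.0 and 17.3 kb in short-pulse replicates 3 and 4 (n = 2 and 12), 31.8 and 28.2 kb in long-pulse replicates 1 and 2 (n = 55 and 52), and 37.0 kb in the control (n = 17).

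On 10 molecules the gap lay between 2 called origins, and whether the 2 forks met each other within it was not observed. There were 3 in long-pulse replicate 1, 6 in replicate 2 and 1 in the control. The origins were 26.1 to 89.1 kb apart, with a median of 52.9 kb. The middle of the gap lay 41.6 to 63.8% of the way from the left origin, with a median of 50.5%, and 8 of the 10 lay between 40 and 60%.

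In the control, the gap of 14.3 kb at X 14387156 to 14401505 in dpr8, an immunoglobulin-domain gene, lay 50.2% of the way between origins 56.1 kb apart. Its BrdU segments measured 9.43 kb on the left and 9.67 kb on the right. In long-pulse replicate 2, the gap of 3.05 kb at 3L 1343633 to 1346680 in Ptp61F, a gene for a protein tyrosine phosphatase, lay at 59.2% between origins 81.1 kb apart, with BrdU segments of 13.7 and 13.3 kb. The least central was the gap of 14.6 kb at 2R 13190095 to 13204703 in Kdm4B, which encodes a histone demethylase. It lay at 63.8% between origins 46.9 kb apart in long-pulse replicate 1, with BrdU segments of 3.05 kb on the left and 6.15 kb on the right. Origins seen on both sides of a gap must lie within the length of a read, which bounds these distances.

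Of the 556 gap midpoints, 376 lay inside a protein-coding gene. As whole intervals, 66 gaps touched no gene, 192 lay within 1 gene and touched no other, and 230 contained at least 1 whole gene. The intergenic share of midpoints was 37.7 ± 12.0% at gaps and 30.6 ± 3.14% at zero width (SD, n = 5 libraries). The difference of 7.11 ± 11.9 points was above 0 in 3 of 5 libraries (exact sign-flip permutation p = 0.25, adjusted p = 0.406), and it was 2.06 points without short-pulse replicate 3.

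Midpoints within 1 kb of a gene end made up 5.88 and 19.0% at the gaps of short-pulse replicates 3 and 4, 26.0 and 22.0% in long-pulse replicates 1 and 2, and 20.8% in the control. At zero width the shares were 24.0, 21.9, 24.0, 24.4 and 29.6% in the same order. The difference of −6.02 ± 7.79 points was above 0 in 1 of 5 libraries (exact sign-flip permutation p = 0.125, adjusted p = 0.271) and −3.0 points without short-pulse replicate 3. A gap midpoint is less well placed than a zero-width coordinate, since the forks may have met anywhere within the gap.

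The 50 longest protein-coding genes, the shortest of which spans 125 kb, held 36 gap midpoints (6.47%), in 25 of the genes, against 100 zero-width terminations (7.01%). None lay in the 8 Hox genes, which set body segment identity, against 5 zero-width terminations, and none in 16 genes for replication factors, against 2. A count of 0 in 556 allows a share of up to 0.540%. The zero-width shares, 0.350% for the Hox genes and 0.140% for the replication factors, both lie under that limit. The most in any gene was 3 gap midpoints, found in CG40006 (2L 22622417 to 22756349), Prosap (2R 14060456 to 14140902), which encodes a synaptic scaffold protein, Ptp61F (3L 1342493 to 1475257) and mtgo (2L 16545016 to 16663218). Ptp61F also held 5 zero-width terminations.

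By arm, gaps made up 29.9% of terminations on 2L (115 of 384), 32.7% on 2R (148 of 452), 28.9% on 3L (118 of 409), 24.2% on 3R (115 of 476) and 24.2% on X (58 of 240). On the small chromosome 4 it was 9.09% (2 of 22), with a 95% Wilson interval of 2.53 to 27.8%. These shares pool the libraries, and no test between arms was made. By library they ran from 3.33 to 46.4% on 2L, 22.2 to 45.5% on 2R and 10.8 to 45.5% on 3L. On 3R they ran from 7.14 to 40%, and on X from 5.88 to 42.9% (5 libraries each).

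Gaps of different molecules were compared by position, and how much overlap random placement would give was not tested. Their summed width was 9.97 Mb, with shared bases counted each time. Counted once per base, 0.303 Mb in 49 intervals lay in gaps of 2 libraries and 9.19 Mb in gaps of 1, and no base lay in gaps of 3 or more libraries. Of the 49 intervals, 5 are named, those with the most gaps first and then in order of position. At 2R 12064977 to 12069314, in CG8888, 2 gaps of short-pulse replicate 4 and 1 of the control met. At 2R 15517154 to 15519164, in Khc-73, which encodes a kinesin motor, 2 gaps of long-pulse replicate 2 and 1 of short-pulse replicate 4 met. The other 3 held 2 gaps each. They were 2L 5471781 to 5474870, 5.72 kb from mid, a T-box transcription factor gene, 2L 6566239 to 6575559 in Dpp10, and 2L 9304299 to 9311453, 5.38 kb from Ggamma30A, a G protein subunit gene.

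In 8 pairs of gaps the overlap exceeded 50% of the wider one. Of these, 4 were between libraries, at Dpp10, MESR3, fz, a gene for a Wnt receptor, and Ten-m, a gene for a teneurin. The other 4 were within a library, at Btk, which encodes a tyrosine kinase, at the transcription factor genes lola and shn, and at 1 intergenic place. At Dpp10, the gap of 2L 6566239 to 6575559 in long-pulse replicate 2 lay wholly inside a gap of the control. How often gaps placed at random would overlap in this way was not tested.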

How the data were processed

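Per the file headers, calls were made by DNAscent forkSense, version 4.0.1 or 4.0.3, and minimap2 2.24, SAMtools 1.10 and dm6 are named in the submitters' processing notes. The deposited files give track, EdU and BrdU lengths in bp (other values) and the authors' stall score per fork. Coordinates are dm6, 1-based. No total of sequenced reads is given in the sources used here.

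Each gap was joined to the rightward fork ending at its left edge and the leftward fork ending at its right edge on the same read, within 100 bp. Values are medians or shares per library (at least 3 values), then means over libraries. Tests were exact two-sided sign-flip permutations over 5 libraries or 2 against 2 permutations, adjusted over 13 tests. The BrdU length and read length differences from zero width are among these and are not printed as tests. Values were computed with Python 3.11.15, numpy 2.4.6, pandas 2.3.3 and scipy 1.17.1 and drawn with matplotlib 3.10.9. Part of the computation was tested on simulated data. This covered the gapped share, closing time, the leading and rightward ratios, and the read length and EdU differences from zero width. Reading the calls and joining forks to gaps were not part of it. Genes are spans of 13922 protein-coding genes from RefSeq (Release 6 plus ISO1 MT), without strand or exons.

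Gaps named are each library's widest, 5 of the 49 intervals shared by 2 libraries and, chosen after their values were seen, the molecules with 2 origins, the longest closing time, genes with 3 gaps and the closest overlaps. The members, lists and tests were chosen with earlier results of these data known. The library with hydroxyurea held no termination (0), and the BrdU gradient library was not used here. Alternatives were other medians and means, pooling, read ends, read and gap lengths, caller version and leaving out each library.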

Additional observations from a re-analysis of the deposited data

How the results depend on the processing

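Of 243 alternative values for 17 results, 17 changed sign and 3 values without a test moved by over 1 SD. The other 223 kept their direction or, for values without a test, stayed within 1 SD. Among these, 34 came from settings that excluded no gap and so could change nothing. Those settings were fork ends within 100 bp of the gap edges and gaps of at least 1 kb. No result passed 0.05. No paired analysis was possible because the pulse groups share fewer than 2 replicate numbers; comparisons within a library were paired by library. Median gap width was 16.7 kb on reads of at least 100 kb and 16.7 kb with means in place of medians, and 18.8 kb for gaps of at least 10 kb. The log2 ratio of leading over lagging BrdU turned positive on reads of at least 100 kb (0.0182), pooled (0.0449), with medians (0.0624), with version 4.0.3 alone (0.0084) and for gaps of at least 10 kb (0.0589), and ran from −0.0244 to 0.0250 with single libraries left out. Rightward over leftward was −0.0281 with track starts 5 kb inside the read, 0.0396 for gaps of at least 10 kb and 0.188 with version 4.0.3 alone. EdU asymmetry at gaps minus zero width was 0.0770 with that limit on track starts, 0.12 on reads of at least 100 kb and 0.0523 for gaps of at least 10 kb. On reads of at least 100 kb the read length difference was −6.35 kb, the share near gene ends 5.86 points and the stalled share −1.40 points. The difference near gene ends was −3.47 points with version 4.0.3 alone and −3.80 for gaps of at least 10 kb, and the intergenic difference 2.97 points under the limit on track starts and 2.91 under that on read length. The stalled share was −0.46 points for gaps of at least 10 kb and ran from −1.71 to 3.83 points with single libraries left out. The ratio of stalled over partner BrdU was 0.0463 with a threshold of 0.3, which was added after the data were seen, as were gaps of at least 10 kb. The higher median gap width for gaps of at least 10 kb follows from that limit itself. The cause of the other shifts was not tested. With single libraries left out, the gapped share ran from 26.1 to 33.4%, median gap width from 11.6 to 13.5 kb, closing time from 10.9 to 14.5 min and the BrdU difference from zero width from 2.71 to 3.35 kb. Short-pulse replicate 3 had 17 gaps, which limits every value that rests on it.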
